A study of Mus musculus with 2 samples.

Results

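The genes described here are 40 cell cycle genes, 20 whose transcripts peak in S phase and 20 whose transcripts peak in G2 and mitosis (G2/M). They were taken as a list of symbols with no rule on their values, but with earlier results of these data known. All 40, written in lower case in the deposited files (mcm2, pcna, top2a, cdk1), were listed for both libraries, out of 8930 genes that both list. They were read in kidney cells of C57BL/6J mice at postnatal day 2 in 2 libraries of droplet single-cell RNA sequencing: 1 control library and 1 library of the group exposed to maternal diabetes, abbreviated DM_Exp in the labels. The study concerns impaired kidney development after maternal diabetes, and no transgene or deletion is named for either group. The labels name 1 kidney and pooled cells per group, which does not settle how many animals gave cells, and there is no replicate check on any difference below.

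Before a cell divides it copies its DNA in S phase and separates the copies in mitosis. E2F transcription factors switch on the replication genes, and later MuvB complexes bound at CHR elements and NF-Y bound at CCAAT boxes time the mitotic genes. In the newborn mouse kidney nephrons are still being formed, so progenitors, early nephron cells, stroma and endothelium divide while mature podocytes have left the cycle.

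The S list holds the origin licensing and helicase genes Mcm2, Mcm3, Mcm4, Mcm5, Mcm6, Mcm7, Cdc6, Cdt1 and Gins2, the sliding clamp and its partners Pcna, Fen1 and Dtl, the nucleotide supply genes Tyms, Rrm1 and Rrm2, the repair and single-strand binding genes Ung and Rpa2, the chromatin genes Hells and Uhrf1, and the histone mRNA binder Slbp. The G2/M list holds the kinase and cyclins Cdk1, Ccnb1, Ccnb2 and Ccna2 with the accessory subunit Cks2, the mitotic kinases Aurka, Aurkb, Plk1 and Bub1, the centromere genes Cenpa, Cenpe and Cenpf, the spindle genes Tpx2, Nusap1 and Kif11, the passenger protein gene Birc5, the ubiquitin-conjugating enzyme gene Ube2c, and the chromosome genes Top2a, Mki67 and Hmgb2. Of these, 6 (Slbp, Ung, Rpa2, Tyms, Hmgb2 and Cks2) are less specific to a phase.

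The 250 bases upstream of each start in RefSeq (GRCm38.p6) were searched on both strands, and 35 of the 40 genes had an entry. Mcm4, Gins2, Ccna2, Tpx2 and Aurkb had none. The E2F letters TTTNNCGC were found in 7 of 18 S genes (Mcm5, Mcm6, Mcm7, Hells, Cdc6, Uhrf1 and Dtl) and in 1 of 17 G2/M genes (Cdk1), against 4.94% of the 27025 genes with an entry. The CCAAT letters were found in 12 of 18 S genes and 15 of 17 G2/M genes, against 37.5% of all genes. The CHR letters TTTGAA were found in 2 of 18 S genes and 7 of 17 G2/M genes, against 18.3%. Both CCAAT and CHR letters stood in 7 of 17 G2/M genes (Mki67, Top2a, Cdk1, Ccnb2, Ube2c, Hmgb2 and Kif11) and in 1 of 18 S genes (Mcm2), against 7.34%. A match is a description of letters and not a bound site.

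Shown first are 2 S promoters with E2F letters, Cdc6 (chr11:98907901-98908150, plus strand) and Mcm6 (chr1:128359706-128359955, minus strand), because Cdc6 is the S gene counted as higher in nephrogenic and as lower in stroma-like cells below. Then follow 3 G2/M promoters with both CCAAT and CHR letters, Cdk1 (chr10:69352913-69353162, minus strand), Ube2c (chr2:164769679-164769928, plus strand) and Ccnb2 (chr9:70421555-70421804, minus strand). The last is Cenpe (chr3:135212313-135212562, plus strand), the member lower in the exposed library in both large classes. Capitals mark matches to any of the 3 motifs on either strand. Matches overlap in Mcm6 (E2F) and in Ube2c (CCAAT). Another listing of gene positions starts Cdc6 at base 98907801, so by that listing its whole window lies inside the gene. The windows of Cdk1, Ube2c and Cenpe overlap their genes in part by the same listing.
Cdc6: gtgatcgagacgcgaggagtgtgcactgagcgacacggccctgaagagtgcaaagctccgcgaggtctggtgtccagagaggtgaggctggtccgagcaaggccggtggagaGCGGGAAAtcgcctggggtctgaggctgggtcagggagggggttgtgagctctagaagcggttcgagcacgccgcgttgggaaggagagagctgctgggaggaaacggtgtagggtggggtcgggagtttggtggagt
Mcm6: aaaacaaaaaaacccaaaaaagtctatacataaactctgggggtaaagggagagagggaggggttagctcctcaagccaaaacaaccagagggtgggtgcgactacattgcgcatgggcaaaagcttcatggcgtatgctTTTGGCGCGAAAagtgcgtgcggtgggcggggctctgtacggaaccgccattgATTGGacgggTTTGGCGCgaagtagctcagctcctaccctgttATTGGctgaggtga
Cdk1: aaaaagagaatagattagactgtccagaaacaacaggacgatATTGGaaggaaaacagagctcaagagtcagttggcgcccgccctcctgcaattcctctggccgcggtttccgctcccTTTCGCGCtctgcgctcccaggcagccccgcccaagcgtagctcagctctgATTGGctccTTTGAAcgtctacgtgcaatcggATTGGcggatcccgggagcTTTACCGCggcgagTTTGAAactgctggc
Ube2c: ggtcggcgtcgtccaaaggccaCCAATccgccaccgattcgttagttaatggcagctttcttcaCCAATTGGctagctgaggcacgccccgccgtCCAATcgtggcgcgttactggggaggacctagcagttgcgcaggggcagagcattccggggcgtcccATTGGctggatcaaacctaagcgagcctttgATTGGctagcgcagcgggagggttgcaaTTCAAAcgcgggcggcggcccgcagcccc
Ccnb2: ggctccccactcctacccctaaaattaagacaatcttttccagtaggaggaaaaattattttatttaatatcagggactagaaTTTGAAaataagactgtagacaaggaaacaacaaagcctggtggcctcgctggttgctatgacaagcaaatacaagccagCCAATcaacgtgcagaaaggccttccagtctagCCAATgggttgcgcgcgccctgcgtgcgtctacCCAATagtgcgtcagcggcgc
Cenpe: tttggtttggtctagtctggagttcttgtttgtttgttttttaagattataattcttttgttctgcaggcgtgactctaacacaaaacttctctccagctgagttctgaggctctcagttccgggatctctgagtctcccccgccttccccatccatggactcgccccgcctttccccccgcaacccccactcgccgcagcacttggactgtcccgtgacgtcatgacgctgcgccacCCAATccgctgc
In these windows Cdk1 holds letters of all 3 motifs, whereas Cdc6 holds E2F letters alone and Cenpe a CCAAT alone.

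The control library held 9071 cells and 39442253 UMIs (unique molecular identifiers, 1 per captured transcript), and the exposed library 5494 cells and 28381167 UMIs. Median depth over the shared genes was 3434 and 4230 UMIs per cell. The 40 genes took 3754 and 3836 CPM (UMIs scaled by the total of the library or class). The libraries shared 14 cell barcodes, 0.154% of control and 0.255% of exposed cells. Mitochondrially encoded genes took 16.3% of control and 11.7% of exposed UMIs. Because a deeper cell shows more members, each cell was thinned to 2000 UMIs and shallower cells, 1484 control and 529 exposed, were left out. A cell was called S when at least 2 different S members were seen and more of them than of G2/M members, G2/M in the reverse case, and tied when both reached 2 in equal number.

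Cells were grouped by the authors' 10 clusters per library, matched between libraries by markers. Control cluster 3 and exposed cluster 1 were stroma-like (11 stroma markers detected in each), clusters 4 and 3 endothelium-like (12), 8 and 10 macrophage-like (10), 9 and 6 podocyte-like (12) and 6 and 9 proximal tubule-like (14). Cluster 2 of each library carried 8 markers of the differentiating nephron and 6 of nephron progenitors, and is called nephrogenic here. It was not the same mixture in both libraries: 7 collecting duct markers were found in the control cluster, with Aqp2 and Fxyd4 among its 10 leading genes, and 1 in the exposed cluster. Cells carrying mostly duct markers made up 10.7% of the control cluster and 7.6% of the exposed one. Cells with mostly progenitor markers made up 11.4% and 10.1%, and those of the differentiating nephron 12.5% and 15.9%. Distal tubule cells made up 11.9% and 10.0%, podocytes 5.98% and 4.76%, and proximal tubule cells 4.55% and 6.09%. The name nephrogenic thus covers an epithelial mixture, and its values are not those of nephron-forming cells alone. The stroma-like clusters carried 3 and 5 pericyte markers, and the macrophage-like clusters also carried 3 neutrophil markers. No cell cycle member was among the 10 leading genes of any cluster.

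Cells with an S, G2/M or tied call were most frequent in nephrogenic, stroma-like and endothelium-like cells of both libraries. Exposed macrophage-like cells stood close, with 46.7% called against 50.4% of exposed endothelium-like cells. In nephrogenic cells 27.3% of control (25.8 to 29.0, 836 of 3058) and 29.9% of exposed cells (27.9 to 32.1, 560 of 1871) were called S. G2/M calls were made in 32.8% (31.1 to 34.5) and 32.2% (30.1 to 34.4) of the same cells. Intervals are 95% Clopper-Pearson for shares and Newcombe for differences, and cover counting error only. The S share was 2.59 points higher in the exposed library (0.00133 to 5.21) and the G2/M share differed by -0.538 points (-3.21 to 2.17). The S difference was 0.604 (-1.49 to 2.75) at 1000 UMIs per cell, and its interval excluded 0 in 6 of 11 alternatives.

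Stroma-like cells, the interstitial support cells, were called S less often in the exposed library, 28.7% of control (26.8 to 30.7, 606 of 2113) against 23.8% (21.6 to 26.0, 347 of 1461). G2/M calls were made in 31.0% (29.1 to 33.1) against 24.98% (22.8 to 27.3). The differences were -4.93 points for S (-7.81 to -1.99) and -6.06 points for G2/M (-9.005 to -3.07). The cut at 2000 UMIs left out 557 control and 153 exposed stroma-like cells, and cells with a call had more UMIs before thinning than cells without one. Thinned to 1000 UMIs, which kept 2660 of 2670 and 1614 of 1614 cells, the G2/M difference was -4.61 points (-7.14 to -2.03) and the S difference -1.48 (-3.63 to 0.750). The G2/M difference was below 0 with an interval excluding 0 in 11 of 11 alternatives. The part that depth takes in the rest of these differences was not tested.

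**Figure D1:**
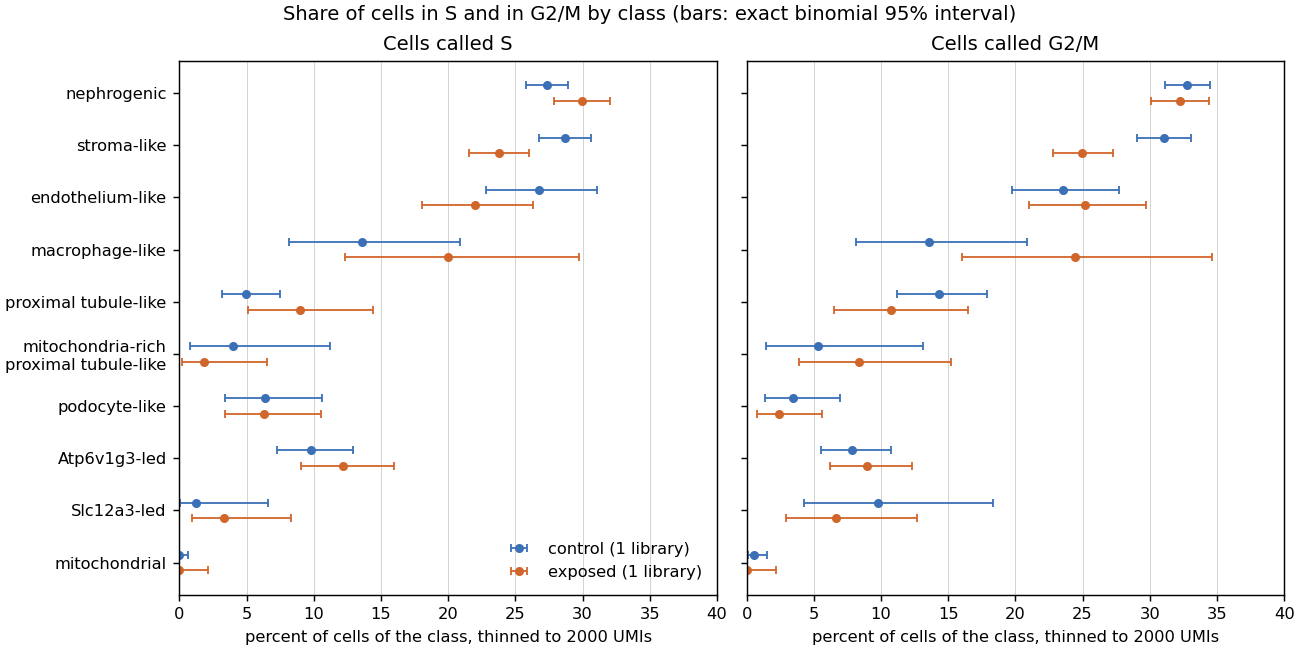
Share of cells called S (left) and G2/M (right) in each class, in percent of cells thinned to 2000 UMIs, with 1 point per library and bars for the exact binomial 95% interval. Nephrogenic, stroma-like and endothelium-like cells stand between 22.0% and 32.8%, and podocyte-like cells between 2.43% and 6.37%.

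Endothelium-like cells, which line vessels, gave S shares of 26.8% for control (22.8 to 31.1, 123 of 459) and 22.0% for exposed cells (18.0 to 26.3, 89 of 405). Their G2/M shares were 23.5% (19.7 to 27.7) and 25.2% (21.0 to 29.7). Neither difference had an interval excluding 0 (S -4.82, -10.5 to 0.937; G2/M 1.66, -4.05 to 7.41). The S share ran against the CPM of the S genes given below, so no order is read from it. In macrophage-like cells 17 of 125 control cells (13.6%) and 18 of 90 exposed cells (20.0%) were called S. G2/M calls were made in 13.6% and 24.4% of them, a difference of 10.8 points (0.36 to 21.8) whose interval excluded 0 in 2 of 11 alternatives.

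Mature podocytes do not divide, and podocyte-like cells serve as the class that should lack these transcripts. Their S shares were 6.37% (3.44 to 10.7, 13 of 204) and 6.31% (3.40 to 10.5, 13 of 206), and their G2/M shares 3.43% and 2.43%, at median depths of 2128.5 and 2600.5 UMIs before thinning. Proximal tubule-like cells were called S in 4.99% of control (3.15 to 7.46, 22 of 441) and 8.98% of exposed cells (5.11 to 14.4, 15 of 167). Median depths over all cells of this class, before the cut, were 5491 and 7103. The Atp6v1g3-led clusters (5 in each library, with distal tubule, intercalated and duct markers) gave S shares of 9.83% and 12.2% and G2/M shares of 7.86% and 8.94%. In clusters 1 and 4, with medians of 97.9% and 98.0% mitochondrial UMIs, no cell was called S, 0 of 572 and 0 of 168, which allows a share of up to 0.524% and 1.79% by the limit of 3 counts (Clopper-Pearson upper limits 0.643% and 2.17%).

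The genes behind a G2/M call were read next in proximal tubule-like cells. The call was made in 14.3% of control (11.2 to 17.9, 63 cells) and 10.8% of exposed cells (6.51 to 16.5, 18 cells). Of the 63 control cells, 90.5% held Cks2 and 82.5% held Hmgb2, while 11.1% held Birc5 and 7.94% held Ube2c. Cks2 was also seen in 36.4% of the control cells with no call. Cdc20, a mitotic activator outside both lists and chosen for display after its values were seen, was found in 1.59% of the control G2/M calls and 1.70% of the control cells with no call. In the exposed library it was found in 5.56% of G2/M calls (1 of 18 cells) and 0.746% of cells with no call. Without the 6 less specific genes the G2/M share of this class was 1.59% and 1.80%. Podocyte-like G2/M calls were not read in this way. In podocyte-like control cells the 40 members took 492 CPM, and 157 CPM without these 6. No trait particular to proximal tubule-like cells is thus read from their calls.

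Genes that took no part in the call were read in the called cells of the large classes. In nephrogenic control cells Cdc20 was seen in 0.811% of cells with no call, 4.78% of S calls and 28.9% of G2/M calls. The exposed library gave 1.88%, 4.11% and 29.7%. Stroma-like cells gave 1.64%, 4.13% and 32.5% in the control library. Both libraries thus held Cdc20 mainly in G2/M calls, but Cdc20 was chosen after its values were seen. H2afz and Tubb4b, also of the mitosis list, gave less contrast in nephrogenic control cells. H2afz was seen in 73.7%, 91.7% and 96.3%, and Tubb4b in 14.8%, 22.7% and 49.0% of cells with no call, S calls and G2/M calls. The replication gene 2810417H13Rik, which encodes a PCNA-associated factor, was seen in 2.34%, 33.3% and 45.6% of nephrogenic control cells in the same order. Cells with a call also had more UMIs before thinning (nephrogenic control medians 3870.5 with no call, 4695.5 in S and 6107.5 in G2/M). They more often had an authors' doublet score over 1 (7.84%, 11.6% and 14.3%); the part of either was not tested.

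**Figure D2:**
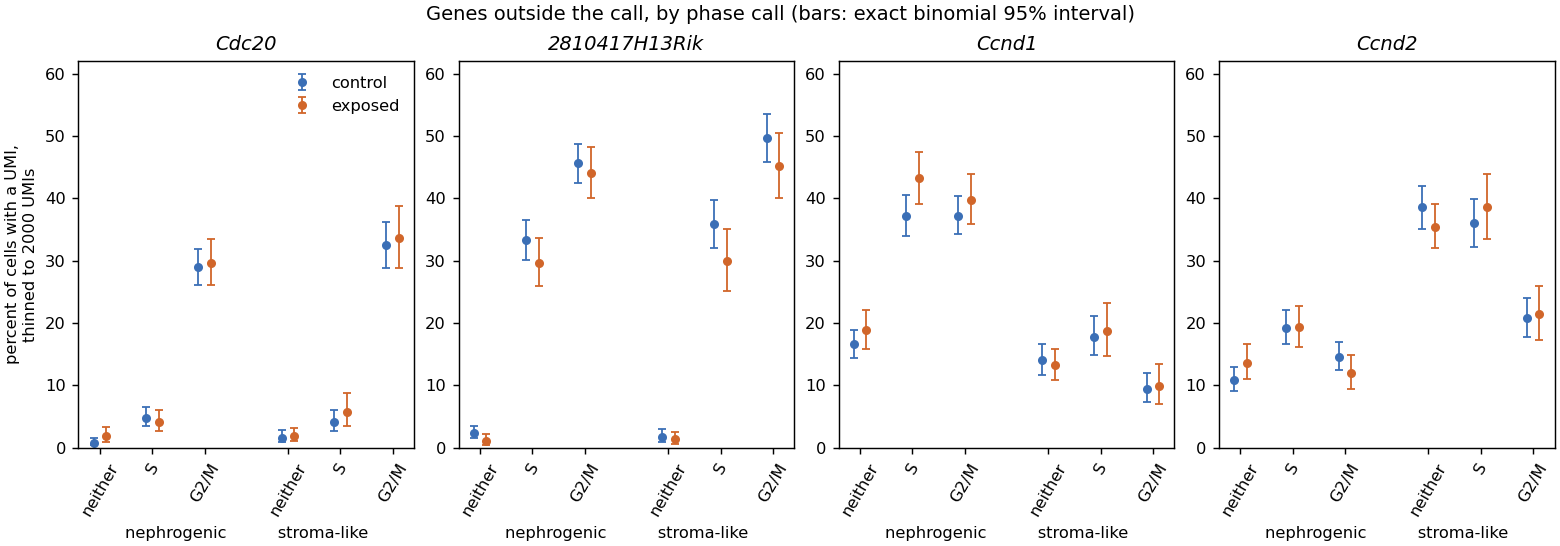
Percent of cells with a UMI of genes that take no part in the call, by phase call, in nephrogenic and stroma-like cells thinned to 2000 UMIs (bars: exact binomial 95% interval, 1 point per library). Cdc20, chosen for display after its values were seen, is near the floor of the axis without a call and between 28.9% and 33.7% in G2/M calls.

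The D cyclins, which drive entry into the cycle, differed between classes. Ccnd1 was seen in 16.6% of nephrogenic control cells with no call (14.4 to 18.9) and in 37.2% of both S and G2/M calls. In stroma-like control cells Ccnd1 was seen in 14.0%, 17.8% and 9.45%. Ccnd2 went from 38.6% of stroma-like control cells with no call (35.1 to 42.1) to 20.7% of G2/M calls (17.7 to 24.0), and the exposed library gave 35.5% and 21.4%. For Ccnd1 the exposed library gave 18.8%, 43.2% and 39.8% in nephrogenic cells, again lower without a call than with one.

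Levels of each member were then set side by side across classes. Of the 40 genes, 27 had their highest control CPM in stroma-like and 11 in nephrogenic cells, and in the exposed library 9 and 22. Mki67, the proliferation marker, stood at 78.6 and 77.2 CPM in nephrogenic, 95.3 and 82.3 in stroma-like and 3.05 and 1.27 in podocyte-like cells (control, then exposed). Its highest level was in stroma-like cells of the control and in macrophage-like cells of the exposed library. Cks2 was highest in proximal tubule-like cells, at 352 and 371 CPM. Mcm6 stood at 71.5 and 88.3 CPM in proximal tubule-like cells, near its 66.8 and 89.2 in endothelium-like cells, whereas Mcm5 stood at 2.24 and 3.37 in the former and 45.9 and 77.1 in the latter. Slbp was held at 74.1 and 84.9 CPM in podocyte-like cells.

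**Figure D3:**
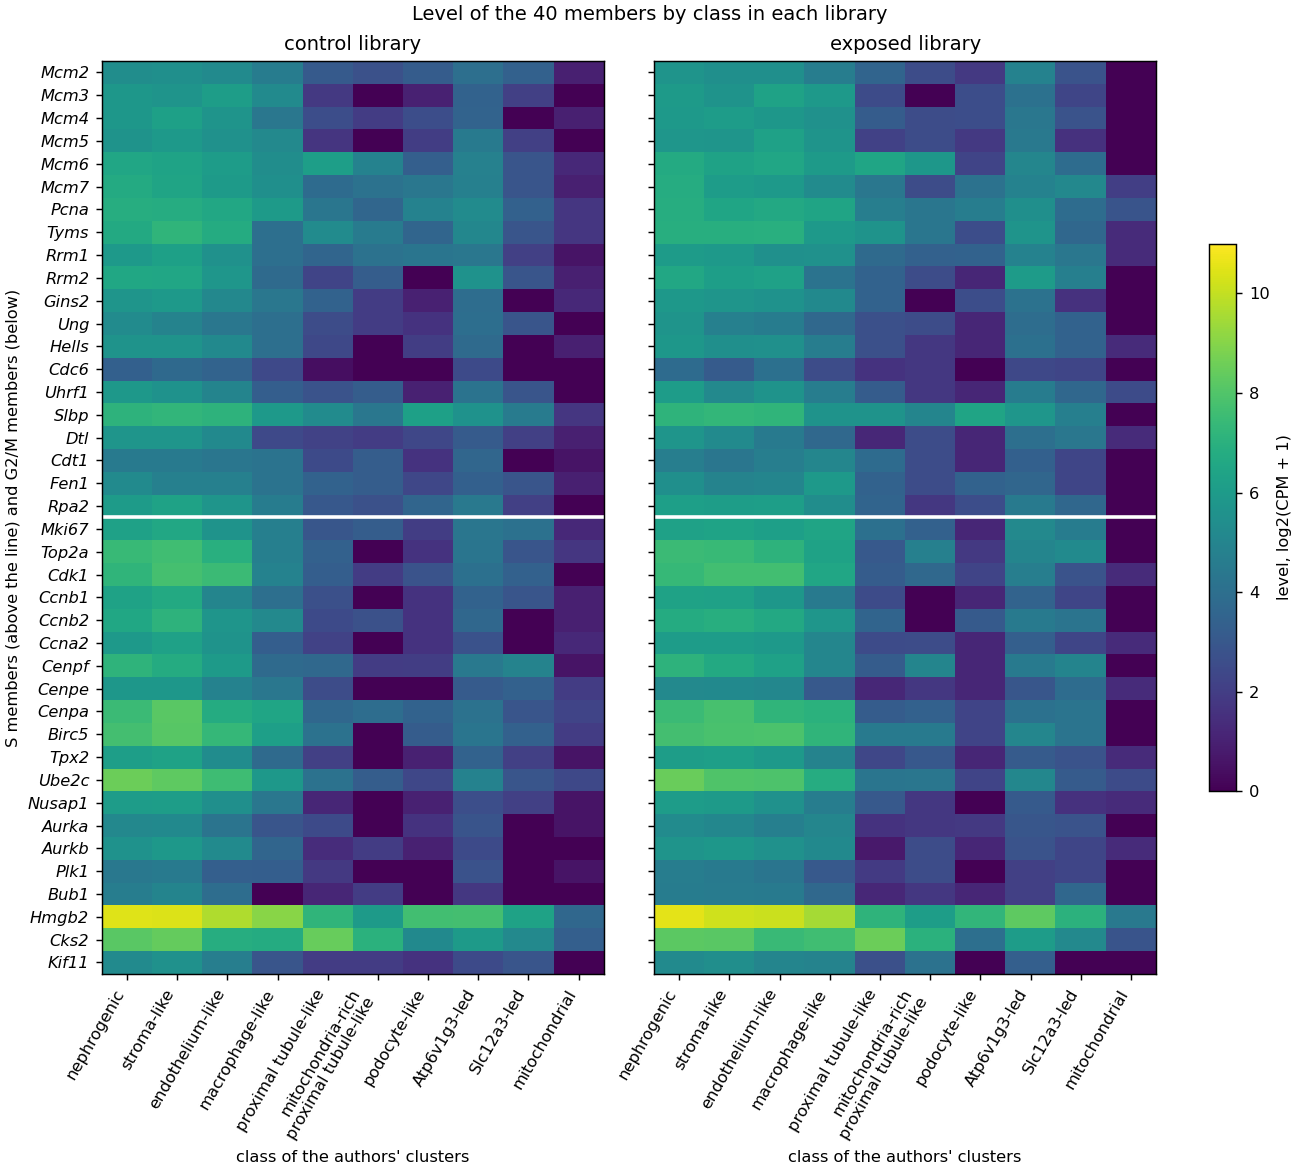
Level of each of the 40 members, as log2(CPM + 1), by class in the control (left) and exposed library (right), with S members above the white line. Nephrogenic, stroma-like and endothelium-like columns are bright for nearly all members, and Cks2 and Mcm6 stay bright in proximal tubule-like cells.

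Each member was then compared between libraries within a class and counted as lower when the ratio of exposed over control CPM was under 0.8, and as higher when the ratio of control over exposed CPM was under 0.8, with at least 50 UMIs in all. In nephrogenic cells 2 of 20 S members were higher and 0 lower, against 5.23% of 8648 genes higher and 11.2% lower by the same rule. Ung, a uracil glycosylase, gave 38.7 CPM for the control against 50.1 for exposed cells, so that exposed over control was 1.30 (exact conditional 95% interval 1.16 to 1.44). Cdc6, which loads the helicase, stood at 9.34 and 13.5 CPM, a ratio of 1.45 (1.16 to 1.80). The other 18 ratios lay between 1.02 (Dtl) and 1.23 (Mcm2). All 20 S ratios were above 1, with a median log2 ratio of 0.16 against -0.01 over all genes. With mitochondrially encoded genes left out of the totals 17 of 20 were above 1, 2 were higher and 0 lower, and the background was 3.93% higher and 14.1% lower. Ratio intervals treat UMIs as independent and leave out the spread between cells.

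Among G2/M members of nephrogenic cells 0 were higher and 1 was lower. Cenpe, the kinesin that carries chromosomes to the spindle equator, gave 56.2 CPM for control cells (52.8 to 59.7, 1035 UMIs) against 34.8 for exposed cells (31.7 to 38.3, 439 UMIs), and the ratio was 0.620 (0.553 to 0.694). The other 19 ratios lay between 0.959 (Cenpf) and 1.20 (Plk1). The median log2 ratio of the 20 was 0.01, and it was -0.03 without mitochondrially encoded genes. Top2a stood at 168 and 182 CPM, Cdk1 at 148 and 165, and Ube2c at 368 and 359. Of the other lists, 3 of 45 replication genes were higher and 0 lower, and 0 of 58 mitosis genes were higher and 3 lower.

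In stroma-like cells the calls went the other way, with 6 S and 5 G2/M members lower and 0 higher, against 6.52% of 7874 genes lower and 6.17% higher. The DNA clamp gene Pcna stood at 113 and 86.4 CPM, a ratio of 0.767 (0.688 to 0.855). The ribonucleotide reductase genes gave 74.1 and 58.5 CPM for Rrm1 (0.790, 0.691 to 0.902), and 89.6 and 69.9 for Rrm2 (0.781, 0.691 to 0.881). Cdc6 stood at 12.4 and 7.84 CPM, a ratio of 0.634 (0.440 to 0.904). Both other S calls belong to ubiquitin ligase genes that act at replicating chromatin. Uhrf1 stood at 48.4 and 34.8 CPM (0.720, 0.606 to 0.853) and Dtl at 52.5 and 37.9 (0.722, 0.613 to 0.850).

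The 5 G2/M members lower in stroma-like cells act from mitotic entry to exit. Ccnb1, the mitotic cyclin, stood at 101.1 and 77.8 CPM, a ratio of 0.769 (0.686 to 0.863). Bub1, a checkpoint kinase, stood at 30.4 and 23.2 CPM (0.764, 0.617 to 0.944). The centromere genes gave 291 and 225 CPM for Cenpa (0.771, 0.721 to 0.824), and 56.3 and 35.9 for Cenpe (0.638, 0.541 to 0.751). Ube2c, which works at mitotic exit, stood at 312 and 248 CPM (0.794, 0.745 to 0.847). Members without a call had ratios of 0.801 (Mcm7) to 1.09 (Fen1) among S and 0.830 (Birc5) to 0.987 (Plk1) among G2/M genes. All 20 G2/M ratios and 17 of 20 S ratios were below 1, with median log2 ratios of -0.21 and -0.23 against 0.02 over all genes. With mitochondrially encoded genes left out of the totals, 8 S and 5 G2/M members were lower, against 7.94% of genes lower and 4.78% higher.

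The fixed lists outside the members, also chosen with earlier results of these data known, gave counts in the same direction in stroma-like cells. There 7 of 45 replication and 11 of 58 mitosis genes were lower and 0 higher in each. 2810417H13Rik stood at 362 and 267 CPM, a ratio of 0.739. Of 22 G1 genes 3 were lower and 1 higher, and Cdk4 stood at 624 and 613 CPM. Within G2/M-called stroma-like cells the 20 G2/M members summed to 18.6 UMIs per control and 18.2 per exposed cell. Of these 20, the share of G2/M-called cells holding the gene differed beyond the counting interval for 1, Cenpe (22.3% and 14.8%, difference -7.46 points, -12.1 to -2.44). In nephrogenic cells Cenpe gave 19.8% and 12.8% (-6.99, -10.5 to -3.26), while Ccnb2 (32.5% and 37.5%, 4.94, 0.147 to 9.79) and Ccna2 (19.9% and 24.9%, 5.02, 0.837 to 9.32) were found in more exposed than control G2/M calls. The call itself uses these genes, so this is a description of the called cells.

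**Figure D4:**
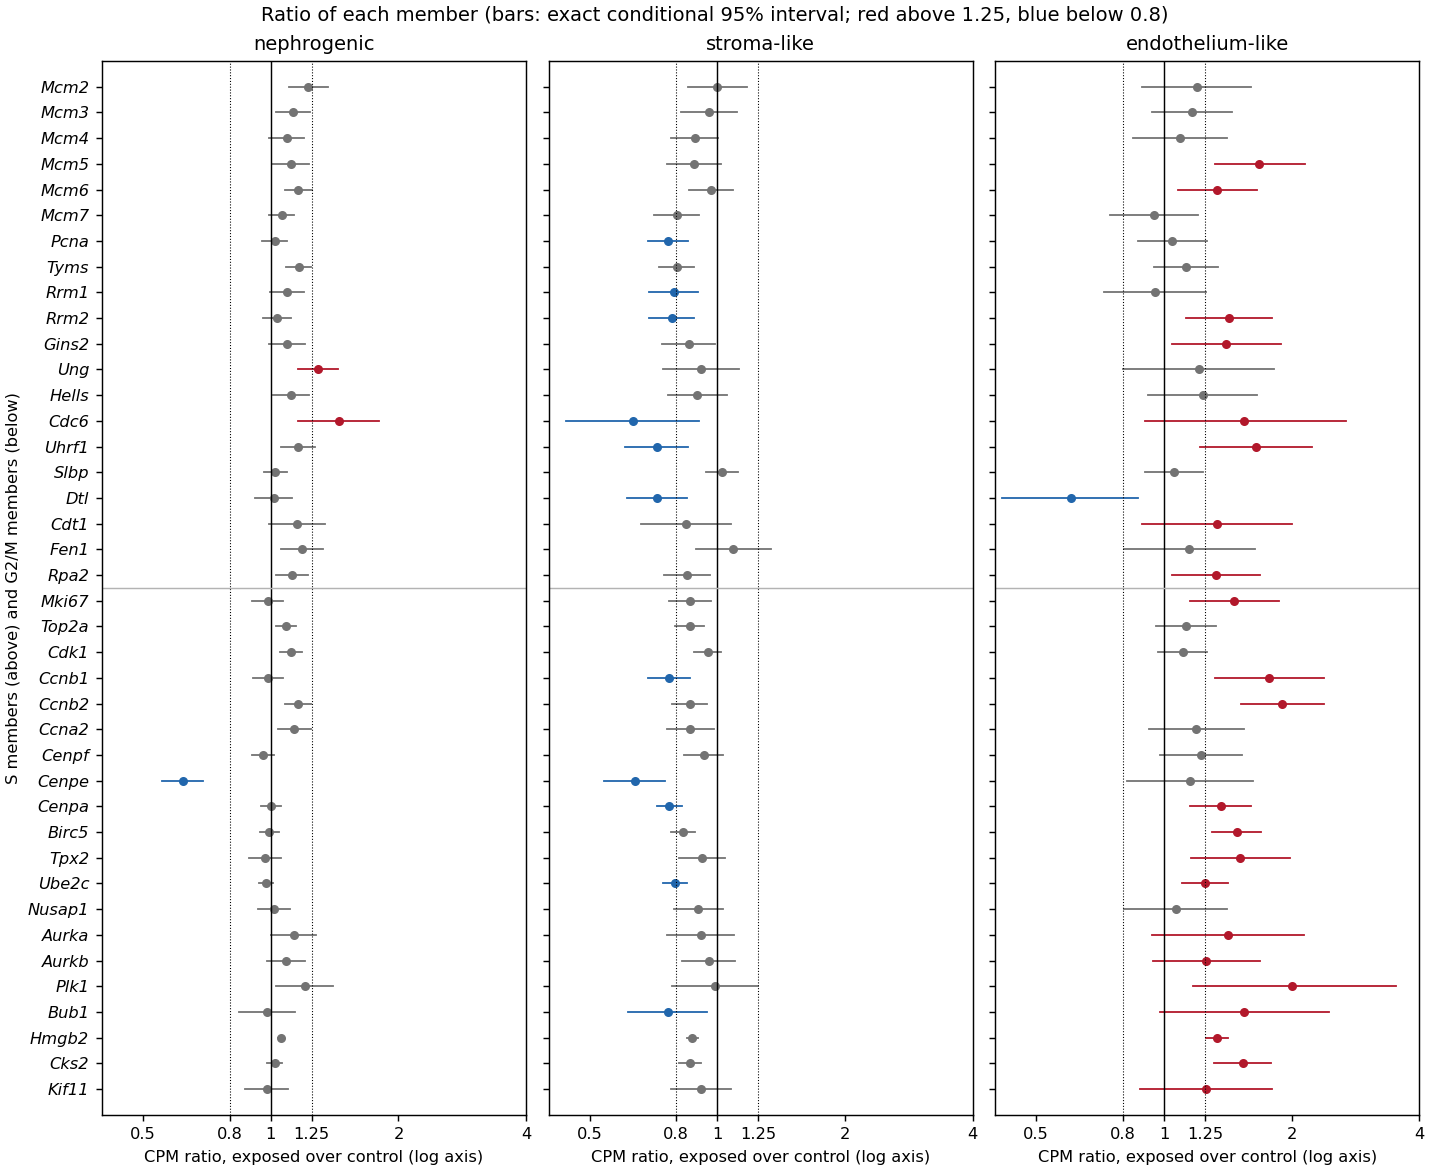
CPM ratio of exposed over control for each member in nephrogenic, stroma-like and endothelium-like cells on a log axis, with bars for the exact conditional 95% interval and dotted lines at the limits of the rule. Stroma-like G2/M members all lie below 1, endothelium-like G2/M members all lie above 1, and Cenpe lies near 0.6 in the first 2 classes.

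Endothelium-like cells had the most calls, 8 S and 14 G2/M members higher and 1 S member lower, against 12.7% of 7023 genes higher and 9.6% lower. Ratios of all 20 G2/M members and of 17 of 20 S members were above 1, with median log2 ratios of 0.43 and 0.26 against 0.04. When the same sums were taken from cells thinned to 2000 UMIs, 5 S and 2 G2/M members were higher and 1 G2/M member was lower, against 16.5% of genes higher and 10.9% lower. Without mitochondrially encoded genes in the totals 8 and 11 were higher, against 9.47% of genes higher and 12.1% lower. Before thinning, endothelium-like control cells had medians of 3560 UMIs with no phase call, 3490 in S and 4254 in G2/M. The exposed medians were 3083, 4480 and 5030, so called exposed cells weighed more in the unthinned sums. The part of depth in the ratios was not tested.

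Among S members of endothelium-like cells, the helicase genes Mcm5 (45.9 and 77.1 CPM, ratio 1.68, 1.32 to 2.15) and Mcm6 (66.8 and 89.2, 1.34, 1.08 to 1.65) were higher. Uhrf1 stood at 30.2 and 49.7 CPM (1.64, 1.22 to 2.23), and Rrm2 at 53.8 and 76.7 (1.43, 1.13 to 1.80). Gins2, a helicase cofactor, stood at 34.2 and 47.9 CPM (1.40), and Rpa2 at 53.0 and 70.2 (1.32). Cdc6 (10.2 and 15.8 CPM, 1.55) and Cdt1 (18.9 and 25.1, 1.33), the licensing genes, passed the fold with intervals that include 1. Dtl, which targets Cdt1 for destruction, was lower, at 36.1 and 21.8 CPM (0.604, 0.416 to 0.868).

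Among G2/M members the B-type cyclins were higher in endothelium-like cells, with Ccnb2 at 51.8 and 98.5 CPM (ratio 1.90, 1.52 to 2.38) and Ccnb1 at 31.0 and 54.8 (1.77, 1.32 to 2.38). Plk1, a mitotic kinase with few UMIs, stood at 9.03 and 18.1 CPM (2.01, 1.17 to 3.52). Birc5 stood at 161 and 239 CPM (1.48, 1.30 to 1.69), and Mki67 at 49.9 and 73.0 (1.46, 1.15 to 1.86). Cks2 (115 and 177 CPM, 1.53), Tpx2 (39.7 and 59.9, 1.51), Cenpa (107 and 145, 1.36) and Hmgb2 (820 and 1096, 1.34) were also higher. The intervals of Bub1 (1.54), Aurka (1.41), Aurkb (1.26) and Kif11 (1.26) include 1. Ube2c stood just inside the limit at 1.2504 (194 and 242 CPM), and Hells (1.23) and Cenpf (1.22) stood just outside. The G2/M members without a call had ratios from 1.07 (Nusap1) to 1.22, and the S members without one from 0.947 (Mcm7) to 1.23. Of the other lists 13 of 42 measured replication and 23 of 54 mitosis genes were higher and 0 and 2 lower, with Tubb4b, among the higher, at 214 and 286 CPM, and Nasp at 129 and 162.

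In macrophage-like cells 1 S and 6 G2/M members had 50 UMIs, and all 7 were higher, against 23.1% of 2212 genes higher and 13.6% lower. Cdk1, the mitotic kinase, stood at 28.2 and 90.5 CPM (13 and 37 UMIs), a ratio of 3.21 (1.67 to 6.58). Birc5 gave 1.956 (1.26 to 3.08), Ube2c 1.95 (1.18 to 3.29), Cks2 1.84 (1.27 to 2.68) and Hmgb2 1.36 (1.15 to 1.62). Cenpa (1.49) and Pcna (1.36) had intervals that include 1. Neutrophil genes S100a9 and S100a8 were the leading genes of the exposed cluster, whereas Lyz2 and C1qb led the control cluster, and cells with mostly neutrophil markers made up 5.56% of the exposed and 2.4% of the control cluster. The part of this shift in the ratios was not tested. A gene had to reach 50 UMIs over both libraries to be counted, so a member could pass through the library where it was higher. Cdk1 passed in this way, and the count of 7 is therefore not read as a result. The 7 also say nothing of the other 33. Summed without this limit, the S members took 493 and 788 CPM (227 and 322 UMIs), and the G2/M members 1094 and 1882 CPM.

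In the Atp6v1g3-led clusters 8 of 19 measured S and 6 of 12 G2/M members were higher, against 32% of 7514 genes higher and 5.58% lower. The S members called were Mcm2 (15.2 and 28.6 CPM, 1.88), Mcm3 (1.64), Mcm4 (1.86), Tyms (1.51), Rrm1 (1.48), Rrm2 (1.34), Uhrf1 (1.36) and Dtl (1.90). The G2/M members called were Ccnb2 (1.89), Mki67 (1.83), Birc5 (1.72), Top2a (1.69), Cdk1 (1.58) and Hmgb2 (1.48). The limit on UMIs is set on both libraries together, so a member could pass it through the library where it was higher. The counts of members called in the Atp6v1g3-led clusters are therefore not read as a result. Summed without this limit, the S members took 412 and 518 CPM (1193 and 1613 UMIs). The G2/M members took 484 and 663 CPM (1402 and 2063 UMIs). These clusters carried 5 duct markers in control and 10 in exposed cells, whose part was not tested. Their median mitochondrial UMIs were 24.0% in control and 14.9% in exposed cells, and the median log2 ratio over all genes was 0.18. Ratios with mitochondrially encoded genes left out of the totals were not taken for this class. In proximal tubule-like cells Mcm7 (1.45), Pcna (1.32), Tyms (1.27), Slbp (1.28) and Birc5 (1.33) were higher and Cenpf (0.664) lower, all with intervals that include 1, against 12.5% and 12.2% of genes. Podocyte-like Hmgb2 was lower (197 and 120 UMIs, CPM ratio 0.761, 0.601 to 0.959), against 13% of genes lower and 11.5% higher. Slc12a3-led Hmgb2 was higher (81.0 and 135 CPM, 1.67), against 39% of genes higher and 10.1% lower. Here too the limit on UMIs could be passed through the exposed library, where Hmgb2 was higher, so its call is not read as a result. The Slc12a3-led clusters had medians of 66.4% (control) and 62.7% (exposed) mitochondrial UMIs, whose part was not tested. Of 2 measured members 0 were called in mitochondria-rich proximal tubule-like cells, against 11.7% of genes higher and 36% lower, and 0 members were measured in the mitochondrial clusters, where 14% and 22% of genes were called.

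Cells were also sorted one by one by the marker list with most members in the cell, which splits the nephrogenic cluster and leaves unassigned 39.5% (control) and 44.1% (exposed) of that cluster. Nephron progenitors gave S shares of 34.7% in 354 control and 40.7% in 189 exposed cells (difference 5.99, -2.47 to 14.6). Differentiating nephron cells gave 29.8% of 382 and 37.5% of 299 cells in S (7.62, 0.488 to 14.7), and 51.3% and 43.1% in G2/M (-8.17, -15.6 to -0.608). Podocytes sorted in this way gave S shares of 10.7% and 8.81% (-1.87, -6.27 to 2.77), and collecting duct cells 19.6% and 18.3% (-1.27, -7.60 to 5.52). The sorted podocytes gave G2/M shares of 16.0% and 12.5% (-3.49, -8.64 to 1.90), above those of the podocyte-like clusters. Of the sorted podocytes, 183 control and 89 exposed cells came from the nephrogenic cluster. Stroma sorted in this way gave 29.1% and 24.0% in S (-5.02, -8.24 to -1.73) and 29.3% and 23.8% in G2/M (-5.57, -8.79 to -2.28).

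**Figure D5:**
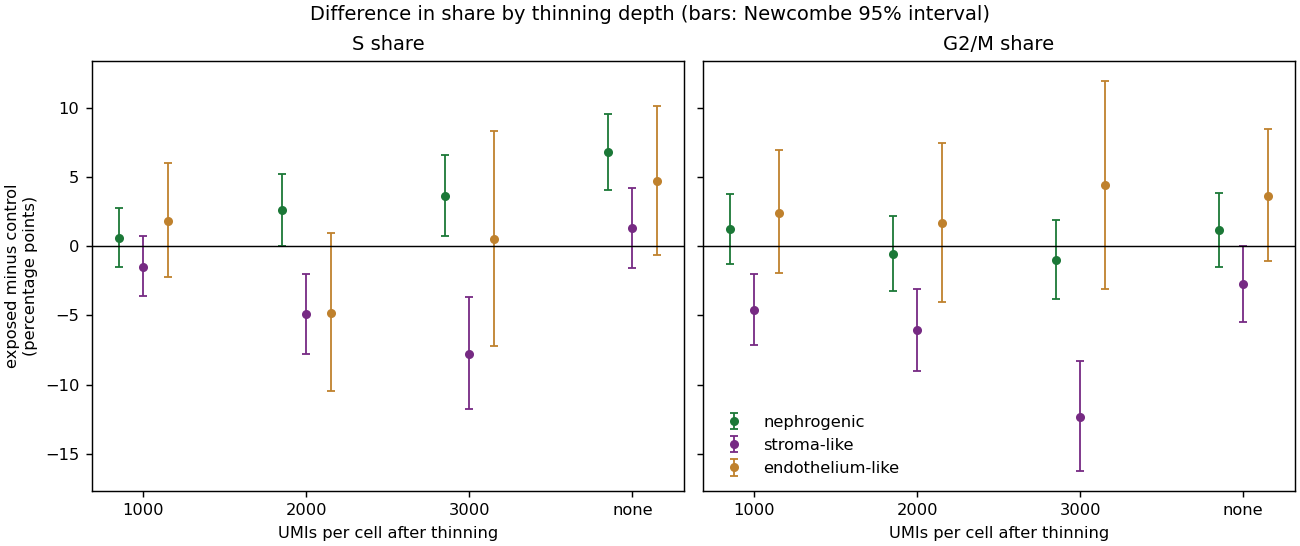
Difference in S share (left) and G2/M share (right), exposed minus control in percentage points, for nephrogenic, stroma-like and endothelium-like cells at each thinning depth and without thinning, with Newcombe 95% intervals. The stroma-like G2/M difference lies below 0 at each depth, from -12.3 at 3000 UMIs to -2.76 without thinning, while the stroma-like S difference is 1.31 without thinning.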

How the data were processed

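Whole kidneys were dissociated and frozen, and cells were processed with the 10x Chromium 3' kit, per the labels' protocols. Cell Ranger 2.2.0 and genome build mm10 are named in the submitters' processing notes. Whole-number UMI counts per gene and cell were deposited by the authors without normalization. Per the file headers, the authors' table of cells gives the percent of mitochondrial UMIs, a doublet score and a cluster number. The sources used here do not say how cells and genes were selected. Sums per class used all deposited cells, phase shares only cells with at least 2000 UMIs, and both only genes listed for both libraries.

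Counts were summed per class and scaled to CPM over shared genes. Cells were thinned without replacement with a fixed seed (11). With 1 library per group no p-value was computed; the rule for members is a ratio under 0.8 of either library over the other with at least 50 UMIs, and every member past it is named. Of the other lists the up to 4 genes with most UMIs could be named. Marker detection required 10% of a cluster's cells and 2 times the level elsewhere. No doublet caller was run; the authors' scores served for an alternative. The members and lists were chosen with earlier results of these data known. Promoter sequences are from RefSeq. Python 3.11.15, numpy 2.4.6, scipy 1.17.1, pandas 2.3.3 and matplotlib 3.10.9 were used, and the scripts were tested on simulated data. Alternatives varied the depth, seed, rule, members, cells, totals and fold.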

Additional observations from a re-analysis of the deposited data

Results flagged for a closer look

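Some results ran in opposite directions in 2 classes under the same contrast of exposed and control library, and the differences between classes were not tested. The S share differed by 2.59 points in nephrogenic and by -4.93 points in stroma-like cells. The G2/M share differed by 10.8 points in macrophage-like and by -6.06 points in stroma-like cells.

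Among single members, Cdc6 had a ratio of 1.45 in nephrogenic and 0.634 in stroma-like cells. Between endothelium-like and stroma-like cells the ratios were 1.43 and 0.781 for Rrm2, 1.64 and 0.720 for Uhrf1, 1.77 and 0.769 for Ccnb1, 1.36 and 0.771 for Cenpa, and 1.2504 and 0.794 for Ube2c. The endothelium-like ratios rest on unthinned sums, where deeper cells weigh more. Most G2/M members called higher in that class were not called higher in thinned cells, as given above. In cells thinned to 2000 UMIs the endothelium-like log2 ratio of Ube2c was -0.056.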

How the results depend on the processing

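No paired analysis was possible because each group has 1 library and the labels give no replicate numbers, and for the same reason no library could be left out. Of the alternatives for a difference in share, 172 kept their value within its interval, 11 moved and 1 reversed. A change of sign was counted as reversed only where the main interval excluded 0, so other changes of sign are among the rest. The endothelium-like S difference (main -4.82) was above 0 in 4 of 11 alternatives, and the nephrogenic G2/M difference (main -0.538) in 3 of 11. The Atp6v1g3-led G2/M difference (main 1.08) was below 0 in 4 of 10. Without thinning the S differences were 6.79 points (nephrogenic), 1.31 (stroma-like, reversed), 4.70 (endothelium-like), 15.2 (proximal tubule-like) and 10.56 (Atp6v1g3-led), and the G2/M differences -2.76 (stroma-like), -9.72 (proximal tubule-like) and 6.88 (Atp6v1g3-led). At 1000 UMIs the S difference was -1.48 in stroma-like and 1.78 in endothelium-like cells, and at 3000 UMIs the stroma-like G2/M difference was -12.3. Sorting cells one by one gave a nephrogenic S difference of 6.53.

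Counts of members kept within 1.5 times in 116 alternatives and moved in 16. A count of 0 in both the main rule and an alternative was among those kept, as for stroma-like members higher at a fold of 1.5. Leaving out cells of other marker classes kept endothelium-like cells at 891 genes higher and 674 lower of 7023, as in the main rule. The 116 are therefore not a measure of how stable the counts are. At a fold of 1.5 the nephrogenic S members higher were 0, the stroma-like members lower 1 (S) and 1 (G2/M), and the endothelium-like members higher 3 (S) and 6 (G2/M), against 1.48%, 1.70% and 2.55% of all genes. With 10 CPM added 0 nephrogenic S members were higher and 3 stroma-like G2/M members lower (all genes 1.82% and 1.98%). In thinned cells the nephrogenic members higher were 4 (S) and 1 (G2/M), the stroma-like members lower 10 (S) and 8 (G2/M), and the endothelium-like members 5 higher (S), 2 higher and 1 lower (G2/M), against 7.10% higher, 8.41% lower, and 16.5% higher and 10.9% lower of all genes. Without cells of other marker classes, an alternative chosen after seeing the data, 1 nephrogenic S member was higher and 3 stroma-like G2/M members lower (all genes 4.86% and 7.35%). Log2 ratios of named members kept within their interval in 280 cases, moved in 14 and reversed in 2, both in thinned endothelium-like cells (Ube2c -0.056, Aurka -0.26); the cause was not tested. The limit of 50 UMIs left 11 of 40 members measured in proximal tubule-like, 7 in macrophage-like and 2 in podocyte-like cells.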
